A study of Mus musculus with 16 samples.

Results

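The quantity described here is the difference of the responses to ligand between genotypes, that is, the log2 fold change of ligand over PBS in KO cells minus the log2 fold change of ligand over PBS in Ctrl cells. It was taken within each of the 4 isolations of mouse lung endothelial cells (MLECs) and tested as an interaction in a model over all 16 libraries of the series. Of the 55414 genes in the deposited table, 29339 had at least 1 count and 15693 had enough counts to be tested. Of these, 2117 genes (13.5%) responded to ligand on the average of both genotypes at an adjusted p under 0.05 by edgeR's quasi-likelihood test, 1208 upwards and 909 downwards. The average response favours neither genotype, so the sign of the difference was not fixed by the choice of genes. In bulk RNA, fewer cells with a transcript and less RNA per cell cannot be told apart.

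MLECs were isolated from *Rosa26-CreERT2;Eng* fl/fl mice carrying the Immorto transgene, which is used to keep primary cells growing in culture. Cells of each isolation were given vehicle (Ctrl) or 4-OH-tamoxifen (KO, in which the Cre removes the floxed part of *Eng*), then serum-starved and treated for 90 min. Ctrl cells received PBS or sENG(M):BMP9, a complex of BMP9 with monomeric soluble endoglin, and KO cells received PBS or pro:BMP9, in which BMP9 is bound to its prodomain. The dose of BMP9 growth factor domain was 0.2 ng/ml in both cases, and each of the 4 groups holds 1 library per isolation. The loss of *Eng*, the exposure to 4-OH-tamoxifen and the form of the ligand differ together between the genotypes and cannot be told apart. The growth medium of all cells contained interferon-γ and SB431542, an inhibitor of the TGF-β type I receptor kinases, before starvation.

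BMP9 is a circulating ligand that binds the type I receptor ALK1 on endothelial cells, and endoglin (ENG) is a co-receptor that captures it at the cell surface. The activated receptors phosphorylate SMAD1 and SMAD5, which enter the nucleus with SMAD4 and switch on a short list of immediate target genes. Among these are the *Id* genes, which block basic helix-loop-helix transcription factors, and the inhibitory *Smad6* and *Smad7*, which restrain the same pathway.

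Libraries held 14869115 to 17242117 counts. Normalised *Eng* expression in PBS was 375 to 594 CPM (read counts scaled to library size by TMM) in Ctrl libraries and 40.1 to 60.0 CPM in KO libraries, without overlap. All 13 endothelial markers looked for were measured, with a summed level of 3879 to 8082 CPM per library, and all 6 lymphatic endothelial markers were measured as well. The 13 fibroblast and mural cell markers summed to 132 to 979 CPM, the 8 epithelial markers to 62.7 to 231 CPM with *Sftpc* at 0 throughout, and the 8 leukocyte markers to 37.9 to 54.3 CPM with *Ptprc*, *Itgam*, *Adgre1* and *Cd3e* under 1 CPM. The summed endothelial and fibroblast markers had mean differences of responses of -0.04 and -0.05 on the log2 scale. Those of the epithelial and leukocyte sums were 0.01 and 0.07, the epithelial sum being at -0.23 in isolation 3 and 0.30 in isolation 4. The part of these markers in the results was not tested.

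No gene passed an adjusted p of 0.05 in the test of the difference (0% of 15693 genes, edgeR's quasi-likelihood test), and 554 genes (3.53%) had an unadjusted p under 0.05. DESeq2 with the isolation as a term gave 0 genes too (288 at an unadjusted p under 0.05), while quantile normalisation followed by ComBat and DESeq2 gave 14 and edgeR without the filter on low counts gave 52. The single differences below are therefore not established gene by gene, and they are given with 95% intervals, their unadjusted p and their values in each isolation. A responding gene is called weaker in KO where the unadjusted p of the difference was under 0.05 and the difference ran against the response, and stronger where it ran with it. It is called equal where the 95% interval of the difference lay within 1.5-fold in both directions, that is, within 0.58 on the log2 scale, and undecided where neither held. A small difference that was measured precisely can be both weaker and equal.

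Among the 2117 responding genes, 192 were weaker in KO (9.07%), 9 were stronger (0.425%), 1759 were equal within 1.5-fold and 307 were undecided. Of the 1759 equal genes, 146 were also weaker. Over all 15693 tested genes, 2.55% had an unadjusted p under 0.05 with a difference against the average response, 0.981% with it, and 67.4% had an interval within 1.5-fold. The limit of 1.5-fold exceeds the whole average response of the 873 upward and 780 downward genes with a response under 0.5, so that their being equal says little. The differences that were larger than their error lay mostly on the weaker side. The difference ran against the response in 1653 responding genes (78.1%), compared with 55.1% of the genes that did not respond.

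**Figure D1:**
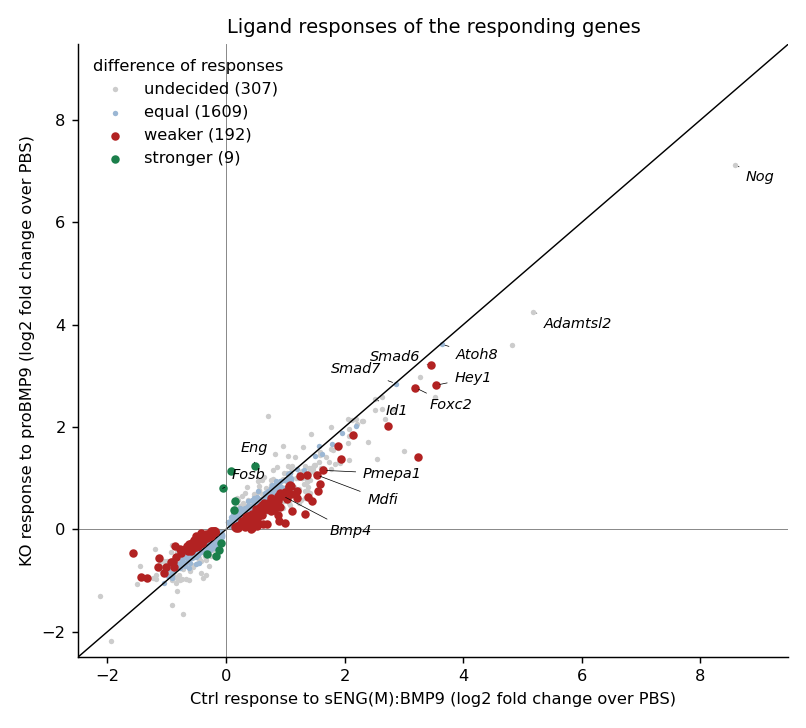
Response of each of the 2117 responding genes in KO cells (y axis, log2 fold change of pro:BMP9 over PBS) against its response in Ctrl cells (x axis, log2 fold change of sENG(M):BMP9 over PBS). The black line marks equal responses, and genes both weaker and equal are drawn as weaker: the 192 weaker genes lie on the side of the line nearer to 0 in KO, *Atoh8* and *Smad7* lie on the line, and 9 genes were stronger.

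The KO responses of the 192 weaker genes ranged from nearly none to nearly that of Ctrl. All 192 were called in Ctrl cells and 105 in KO cells at an adjusted p under 0.05. Of all 2117 responding genes, 1509 were called in Ctrl cells and 896 in KO cells. The KO response of a weaker gene was 3.38% to 92.9% of its Ctrl response on the log2 scale (median 50.4%, quartiles 34.9% and 66.8%), and it was under 50% in 94 genes. The sizes of these differences follow from the rule that chose the genes and carry no test. The median size of the difference was 0.23 on the log2 scale. Without the isolation term in the model 17 genes were weaker, and without isolation 1 there were 125.

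Because the same cells chose and measured these genes, the choice was repeated in 3 isolations and the difference read in the isolation left out, a procedure added after the data were seen. Genes called weaker in the other isolations ran against the response in 86.4% of 125 genes in isolation 1, 70.1% of 134 in isolation 2, 76.9% of 130 in isolation 3 and 71.1% of 218 in isolation 4. For all responding genes chosen in the same way the shares were 70.2%, 67.3%, 67.1% and 62.4%, so most responding genes ran against the response in the isolation left out whether or not they had been called weaker. The shares of the weaker class were the higher in each isolation, closest in isolation 2, and this difference was not tested. For the 4 to 8 stronger genes chosen in this way, the share that ran against the response was 25% to 62.5%. Induced genes chosen in the other isolations had median differences of -0.17, -0.22, -0.23 and -0.18 in isolations 1 to 4. Lowered genes, with the sign turned so that a value below 0 is a weaker response, had -0.12, -0.13, -0.19 and -0.02, and in isolation 4 only 52.3% of 151 lowered genes ran against the response.

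To see whether large and small responses differed alike, genes were grouped by the size of their average response. The group of 115 induced genes, with an average log2 response of 1 or more, had a median response of 1.57 in Ctrl and 1.31 in KO, or 83.5% of the Ctrl value. Their median difference was -0.25, and within isolations 1 to 4 it was -0.22, -0.32, -0.26 and -0.17. All 4 isolations thus lay below 0, with an SD of 0.07 between them, while the median over all tested genes was 0.00. The difference was below 0 in 94 of the 115 genes, below 0 in every isolation in 29 and above 0 in every isolation in 4. Of the induced genes, 16 were weaker (13.9%), 0 stronger, 21 equal and 82 undecided.

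The 129 lowered genes, with an average log2 response of -0.5 or less, had a median response of -0.75 in Ctrl and -0.64 in KO (84.7% of the Ctrl value). Their median difference was 0.14, and in isolations 1 to 4 it was 0.13, 0.14, 0.20 and 0.02, above 0 in each. The fall was smaller in KO for 93 of these genes. Here 17 genes were weaker (13.2%), 0 stronger, 57 equal and 65 undecided. Just inside the limits were *Hs3st3b1* (average response 1.00, difference -0.13) among induced genes and *Slfn4* (-0.50, difference 0.31) among lowered genes, and just outside were *Tbc1d30* (0.99, difference -0.32) and *Socs1* (-0.50, difference 0.29).

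The lower KO response was seen in every class of response size. In upward genes the KO median response was 79.0% of the Ctrl median for 873 genes with an average response under 0.5, 78.0% for 220 genes between 0.5 and 1, 84.1% for 86 genes between 1 and 2, and 86.0% for 29 genes at 2 or more. In downward genes it was 76.0% for 780 genes under 0.5, 83.4% for 115 genes between 0.5 and 1, and 78.8% for 14 genes at 1 or more. In every isolation and every size class the value lay under 100%, between 71.2% and 91.2%. Whether the classes differed from each other was not tested.

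**Figure D2:**
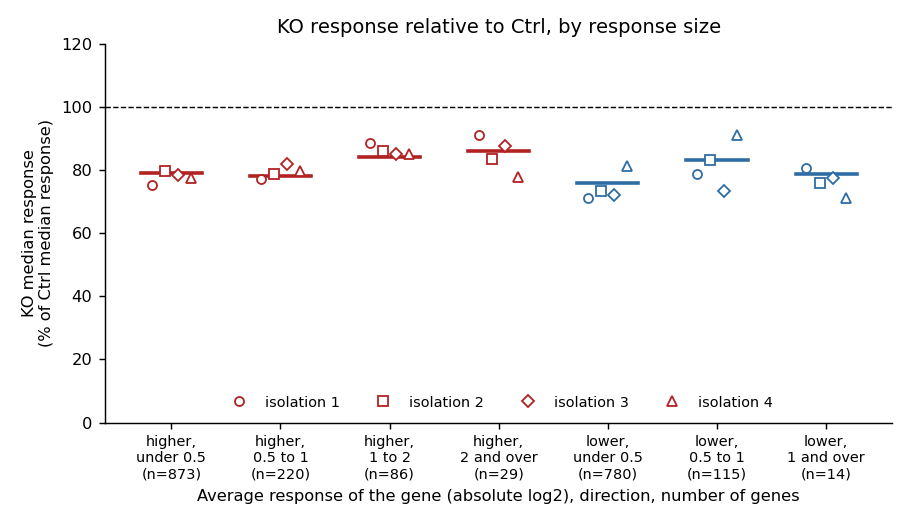
Median KO response as a percentage of the median Ctrl response (y axis) for upward genes (red) and downward genes (blue) in classes of average response (x axis, absolute log2, with the number of genes). Bars are the fitted values and symbols the 4 isolations, which all lie between 71.2% and 91.2% and so under the dashed line at 100%.

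Fewer induced genes could be decided at low expression. Of the 59 induced genes with a mean under 5 CPM, 5 were weaker, 0 equal and 54 undecided, and the median standard error of their difference was 0.49. For the 56 induced genes at 5 CPM or more it was 0.19, with 11 genes weaker, 21 equal and 28 undecided, and the median difference was -0.21. The 13 genes that combined a response of 2 or more with at least 5 CPM had a KO median of 96.6% of the Ctrl median, with isolations at 96.6%, 104%, 80.2% and 91.3%. The isolations of this ratio of medians lay on both sides of 100%, whereas the median of the differences, -0.17, was below 0 in each isolation (-0.08, -0.05, -0.25 and -0.16) and 12 of the 13 genes ran against the response.

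The genotypes were closer to each other in PBS than with ligand. Over the 115 induced genes, the median log2 ratio of KO to Ctrl was -0.03 in PBS and -0.29 with ligand. With ligand, 100 of the 115 genes were lower in KO, and 11 passed an adjusted p of 0.05 between the ligand-treated genotypes, where 0.427% of all tested genes did. In PBS, 0 of the 115 passed and 4 had an unadjusted p under 0.05 (edgeR's quasi-likelihood test). Of all 15693 tested genes, 1 passed in PBS and 1044 had an unadjusted p under 0.05 by the same test. The median induced gene had a mean of 4.22 CPM over all libraries, which limits what could be called in PBS.

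The SMAD feedback inhibitors, which dampen BMP and TGF-β signalling inside the cell, held both weaker and equal responses. All 13 listed genes were tested, and 9 rose and 1 fell on average. Of these 10, 4 were weaker in KO (*Smad6*, *Pmepa1*, *Smurf2* and *Ski*), 0 stronger and 7 equal, *Smad6*, *Smurf2* and *Ski* counting as both. Of all responding genes, 9.07% were weaker. *Pmepa1*, a membrane protein that sequesters receptor-regulated SMADs (chromosome 2, 173066251 to 173118326), had 43.7, 44.2, 27.5 and 38.5 CPM in PBS-treated Ctrl cells of isolations 1 to 4 and 128, 136, 113 and 101 CPM with sENG(M):BMP9. In KO cells it had 47.0, 46.1, 31.7 and 38.2 CPM in PBS and 97.6, 98.4, 85.8 and 78.8 CPM with pro:BMP9. Every ligand-treated KO library lay below every ligand-treated Ctrl library, while the PBS values overlapped. The response was 1.64 in Ctrl and 1.15 in KO, a difference of -0.49 (95% interval -0.74 to -0.23, unadjusted p = 0.0011), below 0 in 4 of 4 isolations. With ligand, the log2 ratio of KO to Ctrl was -0.40 (adjusted p = 0.0454, edgeR's quasi-likelihood test).

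*Smad6*, which blocks the SMAD1 and SMAD5 branch in particular, was among the most strongly induced genes. Its level went from 34.9, 41.0, 36.1 and 46.4 CPM to 402, 507, 393 and 433 CPM in Ctrl, and from 36.3, 38.4, 38.7 and 44.9 CPM to 350, 392, 326 and 400 CPM in KO. The ligand-treated groups overlapped, but within each isolation the KO library was the lower. The difference of -0.24 (95% interval -0.41 to -0.08, unadjusted p = 0.00687) was small beside responses of 3.45 and 3.21, and the ligand-treated genotypes differed by -0.24 (adjusted p = 0.0421, edgeR). *Smurf2*, a ubiquitin ligase that marks receptors and SMADs for degradation, differed by -0.20 (-0.31 to -0.10, unadjusted p = 0.000558). *Ski*, a co-repressor bound by SMADs, differed by -0.14 (-0.24 to -0.04, unadjusted p = 0.0107).

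*Smad7*, which binds the type I receptors of both branches, had responses of 2.87 in Ctrl and 2.85 in KO. Its difference was -0.02 with a 95% interval of -0.33 to 0.29, and the isolations gave values on both sides of 0. *Bambi*, a pseudoreceptor, had responses of 1.32 and 0.89 and was undecided (difference -0.42, -0.85 to 0.01). *Skil*, related to *Ski*, was undecided as well (0.12, -0.44 to 0.67). *Smurf1*, *Tgif1* and *Tob1* had responses of 0.28 or less in size and were equal.

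The 4 *Id* genes all rose, and 0 of them was weaker or stronger. These classes held 9.07% and 0.425% of all responding genes, so a count of 0 among 4 says little. *Id1* stood at 23.3, 20.4, 35.3 and 39.9 CPM in PBS-treated Ctrl cells and at 120, 189, 167 and 194 CPM with ligand, and in KO cells at 21.4, 19.8, 34.0 and 41.9 CPM in PBS and 123, 177, 171 and 209 CPM with ligand. Ctrl and KO libraries overlapped both in PBS and with ligand. The difference for *Id1* was 0.05 (95% interval -0.50 to 0.59), just too wide to be called equal. *Id3* was equal (0.05, -0.24 to 0.34), whereas *Id2* (-0.05, -0.81 to 0.72) and *Id4* (-0.59, -1.45 to 0.26) were undecided. *Id4* had 1.30 to 2.76 CPM in PBS-treated Ctrl cells.

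**Figure D3:**
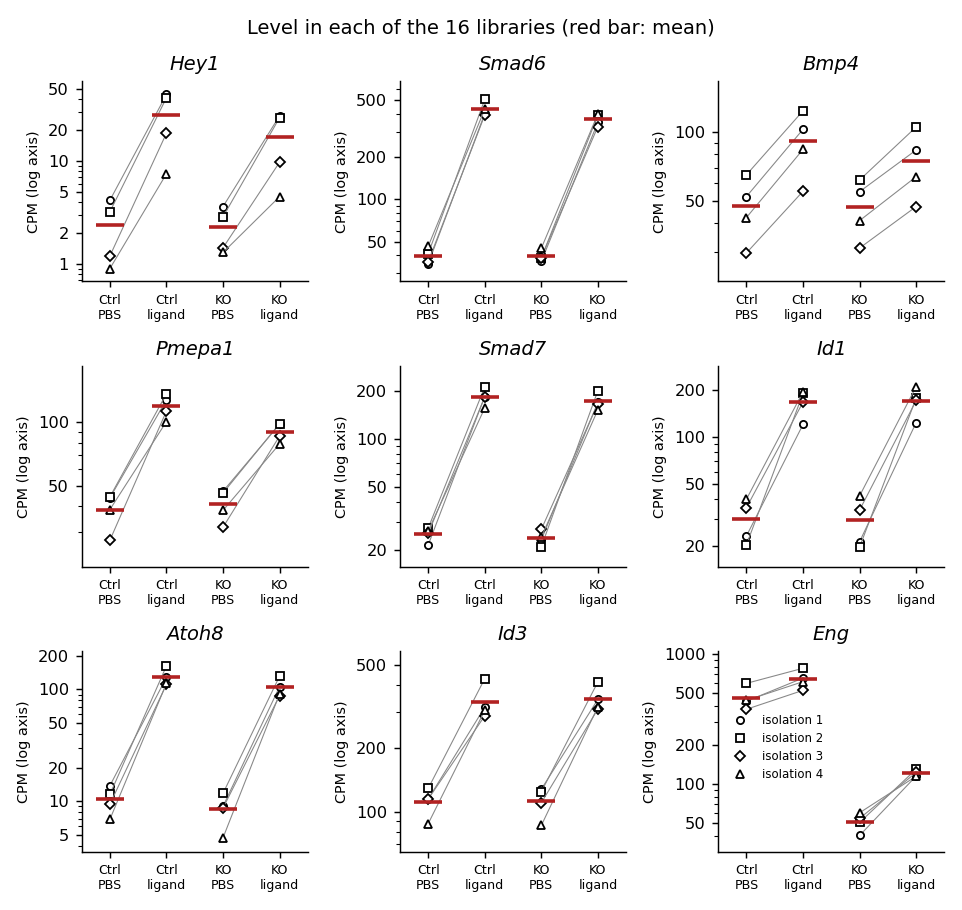
Level of 9 genes in each of the 16 libraries (y axis, CPM on a log axis), by group (x axis), with a symbol per isolation, grey lines joining PBS to ligand within an isolation and red bars for group means. *Pmepa1* shows ligand-treated KO libraries all below ligand-treated Ctrl libraries, *Smad7*, *Id1* and *Id3* reach overlapping levels in both genotypes, and *Eng* starts between 40.1 and 60.0 CPM in KO.

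Promoter sequences of 4 genes are shown so that the responses can be read beside the DNA at the start of these genes. The sequences are from RefSeq (table of build GRCm38.p6), run from 250 bases before to 50 bases after the annotated start, and were located on GRCm39 by exact match. *Smad6* and *Bmp4* were weaker in KO though within 1.5-fold, and *Atoh8* and *Id3* were equal only. Capitals mark the SMAD box GTCT or its reverse complement AGAC on either strand, and the BMP-type motif GGCGCC, which none of the 4 holds.
*Smad6*, chr9:63929292-63929591, minus strand: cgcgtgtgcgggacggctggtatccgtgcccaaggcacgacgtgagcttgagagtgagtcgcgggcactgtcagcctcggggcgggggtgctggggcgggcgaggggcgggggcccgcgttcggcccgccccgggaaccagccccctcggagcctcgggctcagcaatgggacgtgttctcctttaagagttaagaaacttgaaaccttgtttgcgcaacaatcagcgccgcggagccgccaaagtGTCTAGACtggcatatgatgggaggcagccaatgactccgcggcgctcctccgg
*Bmp4*, chr14:46628077-46628376, minus strand: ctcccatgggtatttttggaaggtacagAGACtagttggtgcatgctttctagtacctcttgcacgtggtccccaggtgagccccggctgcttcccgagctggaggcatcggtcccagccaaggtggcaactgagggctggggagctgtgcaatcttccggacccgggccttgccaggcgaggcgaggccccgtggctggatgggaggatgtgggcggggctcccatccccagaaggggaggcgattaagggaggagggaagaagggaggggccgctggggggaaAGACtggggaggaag
*Atoh8*, chr6:72212512-72212811, minus strand: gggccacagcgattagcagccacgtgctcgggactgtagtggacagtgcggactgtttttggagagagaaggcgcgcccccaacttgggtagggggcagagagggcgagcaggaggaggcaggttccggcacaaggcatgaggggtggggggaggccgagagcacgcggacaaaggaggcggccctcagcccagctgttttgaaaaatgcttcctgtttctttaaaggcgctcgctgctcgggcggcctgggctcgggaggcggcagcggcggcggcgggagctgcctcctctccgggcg
*Id3*, chr4:135870883-135871182, plus strand: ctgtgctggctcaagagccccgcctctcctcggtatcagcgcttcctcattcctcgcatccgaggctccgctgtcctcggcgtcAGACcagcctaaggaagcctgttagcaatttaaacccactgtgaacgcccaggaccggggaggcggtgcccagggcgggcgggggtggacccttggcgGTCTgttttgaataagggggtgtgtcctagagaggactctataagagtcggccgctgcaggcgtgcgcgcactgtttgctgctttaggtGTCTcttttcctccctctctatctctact

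The *Smad6* promoter holds its 2 boxes side by side as the palindrome GTCTAGAC. This 8-base motif was found in 0.21% of the 22862 genes of the table with 1 promoter. *Bmp4* holds 2 boxes, *Id3* 3 and *Atoh8* none. A GTCT box was found in 86.1% of the 8797 tested genes with 1 promoter in the table, in 88.7% of 71 upward weaker genes and in 82.3% of 491 upward genes that were equal and not weaker or stronger. GGCGCC was found in 21.7%, 38.0% and 36.0% of the same promoters, whose median GC content was 61.0%, 69.7% and 66.3%. No test was made of these shares.

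Secreted BMP antagonists, which bind BMP ligands outside the cell, had 14 members tested, of which 4 rose and 1 fell. *Nog*, which encodes the antagonist Noggin (chromosome 11, 89191464 to 89193158), was close to undetected without ligand, its PBS-treated libraries holding 0 or 1 counts each. With sENG(M):BMP9 it reached 16.2, 15.1, 5.41 and 0.693 CPM in Ctrl cells, and with pro:BMP9 6.62, 4.41, 1.88 and 0.392 CPM in KO cells. The level with ligand varied widely between isolations and was lower in KO in 4 of 4. Against a floor of 3 counts per PBS-treated library the induction was at least 83.0-, 76.9-, 30.1- and 3.83-fold in Ctrl and at least 34.8-, 22.5-, 10.4- and 2.22-fold in KO. These are lower bounds, so they do not give the difference of responses, and its fitted interval of -5.54 to 2.62 decided nothing. Between the ligand-treated genotypes, *Nog* had a log2 ratio of -1.48 (adjusted p = 0.000149, edgeR's quasi-likelihood test). *Fstl3*, a follistatin-like binder of activins, had responses of 0.41 in Ctrl and 0.09 in KO and was the weaker member of the list (-0.32, -0.60 to -0.05, unadjusted p = 0.0232). *Fst*, *Fstl1* and *Nbl1* were equal.

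Of 14 tested ligand genes of the family, 3 rose and 2 fell. The difference ran against the response in all 5, compared with 78.1% of all responding genes. *Bmp4*, an agonist of the same SMAD branch (chromosome 14, 46620977 to 46628126), had 52.3, 65.1, 29.6 and 42.3 CPM in PBS-treated Ctrl cells, and 103, 124, 55.1 and 84.1 CPM with ligand. KO cells had 54.9, 61.7, 31.1 and 41.0 CPM in PBS and 83.6, 105, 47.2 and 63.8 CPM with ligand. The groups overlapped because the isolations differed, but in each isolation the ligand-treated KO library was the lower. The responses of 0.95 and 0.66 differed by -0.29 (95% interval -0.43 to -0.16, unadjusted p = 0.000146, adjusted p = 0.763 by edgeR's quasi-likelihood test). With ligand, KO and Ctrl differed by -0.29 (adjusted p = 0.00224, edgeR). *Bmp6*, *Tgfb1*, *Tgfb2* and *Inhba* had responses of 0.52 or less in size and were equal.

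Among 11 tested receptors 6 rose, and *Acvrl1* (ALK1), *Bmpr2*, *Acvr1*, *Bmpr1a* and *Acvr1b* were all equal, as were 1759 of all 2117 responding genes. *Bmpr2*, one of the type II receptors that BMP9 can use, rose by 0.64 in Ctrl and 0.51 in KO. *Eng* was the exception, with a stronger response in KO. It went from 432, 594, 375 and 439 CPM to 652, 776, 525 and 612 CPM in Ctrl cells, and from 40.1, 50.5, 54.3 and 60.0 CPM to 115, 130, 122 and 115 CPM in KO cells. In proportion the rise was larger in KO (log2 responses 0.48 and 1.23, difference 0.75, 95% interval 0.32 to 1.17, unadjusted p = 0.00331), while all KO libraries stayed below all Ctrl libraries. *Eng* is the deleted gene, and reads of its deleted and its remaining exons cannot be told apart in counts per gene. Of the signalling SMADs, *Smad1*, *Smad2*, *Smad3* and *Smad5* had responses of 0.15 or less in size and were equal, and *Smad9*, an additional BMP-activated SMAD, rose by 2.05 and 2.16 and was undecided.

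The Notch targets *Hey1* and *Hes7*, which encode transcriptional repressors, were the 2 weaker members of the Notch list, in which 18 genes were tested, 8 rose and 3 fell. These were 2 of 11 responding genes, beside 9.07% weaker and 1759 equal among all 2117 responding genes. *Hey1* (chromosome 3, 8728419 to 8732316) rose from 4.16, 3.22, 1.20 and 0.906 CPM to 44.1, 41.0, 18.6 and 7.51 CPM in Ctrl and from 3.62, 2.88, 1.44 and 1.30 CPM to 27.4, 26.3, 9.73 and 4.51 CPM in KO. PBS levels overlapped, and with ligand each KO library lay below the Ctrl library of its isolation. The difference was -0.73 (95% interval -1.18 to -0.28, unadjusted p = 0.00281), with isolations at -0.49, -0.48, -1.17 and -1.18. With ligand, KO and Ctrl differed by -0.73 (adjusted p = 0.00129, edgeR). *Hes7* differed by -0.70 (-1.39 to -0.01, unadjusted p = 0.045) at 0.483 to 1.77 CPM in PBS-treated Ctrl cells. *Hes1* was equal with responses of 0.93 and 0.95 (0.02, -0.36 to 0.40), and *Hey2* lay on the other side (0.43, -0.47 to 1.32) without being decided. Of the receptors and ligands of the pathway, *Notch1*, *Dll1*, *Dll4*, *Jag2* and the target *Nrarp* were equal.

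Of 14 responding developmental transcription factors 0 were weaker, and of 18 responding endothelial identity factors 5 were. Of all responding genes, 9.07% were weaker. The lists were not tested against each other or against that share. Of 22 tested developmental factors 11 rose and 3 fell, 10 were equal, and 4 undecided. *Atoh8*, a basic helix-loop-helix factor of endothelial and liver cells, had responses of 3.64 in Ctrl and 3.62 in KO (difference -0.02, 95% interval -0.48 to 0.44), with differences of 0.33, -0.34, -0.22 and 0.22 in the isolations. *Snai1*, a repressor known from epithelial to mesenchymal change, was equal too (-0.17, -0.39 to 0.05). Of 21 endothelial identity factors, 11 rose and 7 fell, and 5 of the 18 were weaker. *Foxc2*, a forkhead factor of lymphatic valves, was the strongest of these, with 5.52, 8.74, 5.46 and 8.10 CPM in PBS-treated Ctrl cells, 59.1, 79.4, 60.8 and 54.9 CPM with ligand, and 43.1, 59.4, 44.1 and 43.3 CPM in ligand-treated KO cells. Its difference was -0.43 (-0.74 to -0.11, unadjusted p = 0.00995). *Tal1*, a haemato-endothelial factor, differed by -0.21 (-0.40 to -0.03, unadjusted p = 0.0256). The others, *Ets2* (0.18), *Fli1* (0.21) and *Mef2c* (0.21), were lowered by ligand, and were named after their values were seen. *Sox18*, which acts in lymphatic specification, rose by 2.62 and 2.35 and was undecided (-0.27, -0.64 to 0.09).

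Vasoactive genes, which set vessel tone and clotting, had 21 members tested, with 10 rising and 6 falling. The difference ran against the response in all 16, and 4 were weaker and 0 stronger. Of all responding genes, 78.1% ran against the response and 9.07% were weaker. *Edn1*, which encodes the vasoconstrictor endothelin-1, was equal (responses 1.95 and 1.88, difference -0.07, -0.45 to 0.31). *Ptgs2*, the inducible cyclooxygenase, rose by 1.64 and 1.20 and was undecided (-0.44, -1.68 to 0.81), as was *Bdkrb2*, the B2 bradykinin receptor (-0.69, -1.43 to 0.05). The weaker genes included *Ramp2* (-0.18), *Ptgis* (-0.13) and *Calcrl* (0.16, lowered by ligand), named after their values were seen. *Ramp2* and *Calcrl* encode both parts of the adrenomedullin receptor.

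In the matrix, *Adamtsl2*, a secreted microfibril-associated protein (chromosome 2, 26969391 to 26998993), rose from 0.455, 0.197, 0.240 and 0.242 CPM to 6.54, 5.49, 12.4 and 17.2 CPM in Ctrl and from 0.190, 0.196, 0.301 and 0.177 CPM to 1.79, 2.20, 8.43 and 4.77 CPM in KO. The isolations gave differences of -0.92, -1.27, -0.77 and -1.54 on the scale with a prior count, all below 0, but the fitted difference of -0.93 had an interval of -2.42 to 0.55 and was undecided. Between the ligand-treated genotypes *Adamtsl2* differed by -1.31 (adjusted p = 0.00495, edgeR). *Eln*, which encodes elastin, was weaker (responses 1.21 and 0.75, difference -0.45, -0.87 to -0.04, unadjusted p = 0.034), below 0 in 3 of 4 isolations. Its log2 ratio of KO to Ctrl was -0.80 with ligand (adjusted p = 0.00412, edgeR) and -0.35 in PBS (unadjusted p = 0.0316, edgeR). Of 25 tested elastic fibre genes 6 rose, 1 of them weaker, and of 17 collagen chains 1 rose and 1 fell, with 0 weaker. The weaker share over all responding genes was 9.07%.

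By the smallest unadjusted p with 1 sign in all 4 isolations, the leading weaker genes were *Grk2*, *Sox13*, *Bmp4*, *Mdfi*, *Cdc42ep2* and *Tmem200b*. *Grk2* encodes a kinase that desensitises G protein-coupled receptors. It went from 82.7, 96.4, 96.2 and 106 CPM to 124, 131, 138 and 147 CPM in Ctrl, and from 95.2, 101, 102 and 107 CPM to 110, 111, 126 and 128 CPM in KO. Its response of 0.50 in Ctrl and 0.23 in KO differed by -0.27 (-0.39 to -0.16, unadjusted p = 5.89e-05, adjusted p = 0.763 by edgeR's quasi-likelihood test), the smallest p among responding genes. *Sox13*, a SoxD transcription factor, differed by -0.33 (-0.48 to -0.18) and *Mdfi*, an inhibitor of MyoD-family factors, by -0.46 (-0.68 to -0.25). *Tmem200b*, a membrane protein, differed by -0.56 (-0.84 to -0.29). For some of these genes part of the difference lay in PBS. The log2 ratio of KO to Ctrl in PBS and with ligand was 0.19 and -0.14 for *Sox13*, and 0.28 and -0.28 for *Tmem200b*. It was 0.09 and -0.18 for *Grk2*, 0.10 and -0.36 for *Mdfi*, and 0.00 and -0.29 for *Bmp4*. Of the 120 upward weaker genes, 89 were higher in KO in PBS, compared with 609 of all 1208 upward genes. The rule for weaker genes favours this, since the difference subtracts the PBS ratio.

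*Cdc42ep2*, an effector of the GTPase CDC42, was the leading lowered gene. It fell from 39.6, 43.1, 36.8 and 37.2 CPM to 16.5, 20.0, 16.6 and 17.4 CPM in Ctrl and from 45.2, 50.3, 36.3 and 33.6 CPM to 24.7, 27.4, 22.4 and 24.0 CPM in KO. Every ligand-treated KO library lay above every ligand-treated Ctrl library (difference 0.41, 0.21 to 0.62, unadjusted p = 0.000293). Other lowered genes that were weaker in KO were *Gvin3*, a giant interferon-inducible GTPase (0.49, 0.18 to 0.81), *Otud1*, a deubiquitinase (0.38, 0.06 to 0.69), and *Klf11*, a Krüppel-like factor (0.30, 0.06 to 0.55). The lowered *Mycn* (-2.13 in Ctrl and -1.30 in KO) was undecided.

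**Figure D4:**
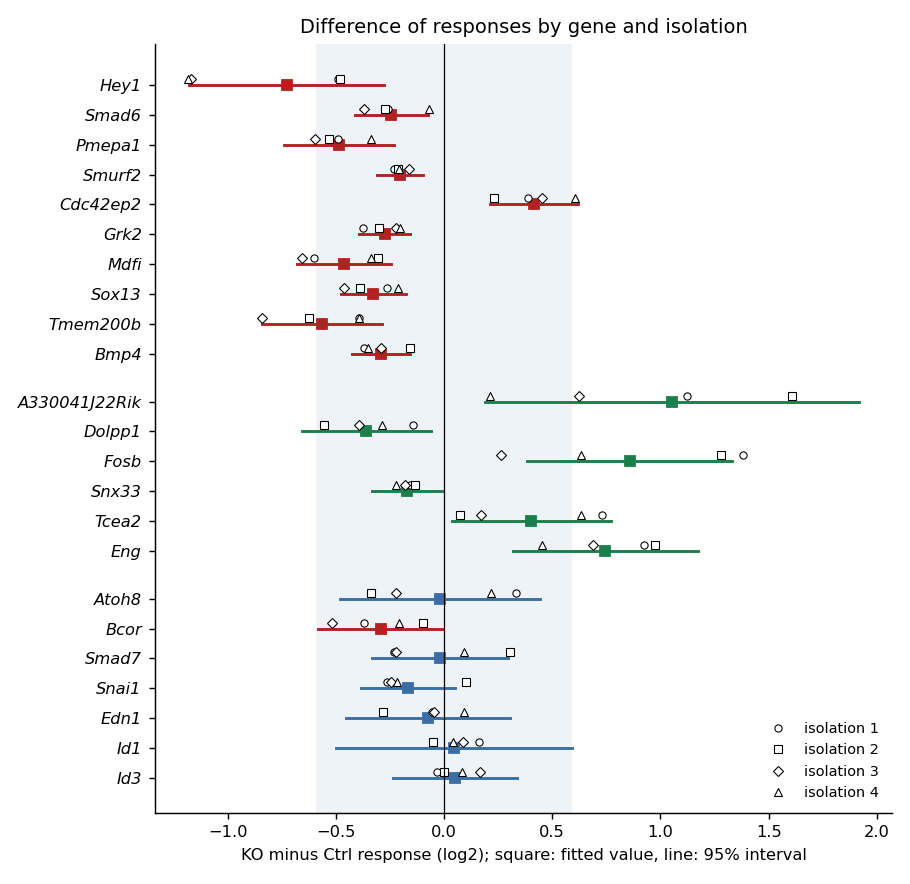
Difference of responses (x axis, KO minus Ctrl, log2) of named genes (y axis): squares are fitted values, lines 95% intervals and open symbols the 4 isolations, with red for weaker, green for stronger and blue for equal or undecided genes. The shaded band is 1.5-fold in both directions; *Pmepa1* and *Hey1* lie below 0 in every isolation, *Fosb* and *Eng* above, and *Atoh8* and *Smad7* on both sides.

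The 9 stronger genes were few and mostly small responders. Besides *Eng*, they were *Fosb*, *A330041J22Rik*, *Dolpp1*, *Tcea2* and *Snx33* by the same rule, with *Zfp597*, *Mier2* and *Gm37305* named after their values were seen. *Fosb*, an immediate early AP-1 subunit, had 3.44, 3.48, 3.66 and 5.20 CPM in PBS-treated Ctrl cells and 2.5, 2.88, 5 and 5.03 CPM with ligand. In KO cells it had 2.03, 1.90, 3.91 and 4.01 CPM in PBS and 4, 3.97, 6.42 and 6.08 CPM with ligand, above PBS in every isolation. The responses of -0.06 and 0.80 differed by 0.86 (95% interval 0.38 to 1.33, unadjusted p = 0.000949). Of 25 tested immediate early genes 10 rose and 8 fell, and *Fosb* was the 1 that was stronger, with 0 weaker. Over all responding genes, 0.425% were stronger and 9.07% weaker. *Junb* was equal (-0.16, -0.34 to 0.01). *A330041J22Rik* had responses of 0.09 and 1.14 with a wide interval of the difference (1.05, 0.19 to 1.92), and *Dolpp1*, a phosphatase of the dolichol cycle, had -0.17 and -0.53. For several of these genes the larger gap between genotypes was in PBS. The log2 ratio of KO to Ctrl was 0.32 in PBS and -0.03 with ligand for *Dolpp1*, -0.77 and 0.28 for *A330041J22Rik*, -0.28 and 0.12 for *Tcea2*, 0.13 and -0.05 for *Snx33*, and -0.43 and 0.42 for *Fosb*, none of them past an adjusted p of 0.05 by edgeR's quasi-likelihood test.

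Lists linked to inflammation held 0 weaker and 0 stronger genes. Of all 2117 responding genes, 9.07% were weaker, 0.425% were stronger and 1759 were equal. Of 27 tested chemokines and cytokines 3 rose and 8 fell, and of 14 NF-κB subunits and feedback inhibitors 1 rose and 8 fell. Of the 11 responding chemokines and cytokines 6 were equal and 5 undecided. The difference ran against the response in 10 of them, compared with 78.1% of all responding genes. Their median difference was -0.14 when signed by the response (-0.07 over all responding genes). All 9 responding NF-κB genes were equal, including *Tnfaip3* (0.28 and 0.26) and *Traf1* (-0.67 and -0.53). The 7 responding leukocyte adhesion genes of 12 tested were equal too, among them *Vcam1* (-0.30 and -0.28), *Sele* (0.59 and 0.57) and *Icam1* (0.52 and 0.43). The limit of 1.5-fold exceeds the whole responses of *Tnfaip3*, *Vcam1* and *Icam1*, so that their being equal says little. Of 55 tested interferon-stimulated genes 0 responded on average at an adjusted p under 0.05 by edgeR's quasi-likelihood test, and 3 had an unadjusted p under 0.05. Their median difference was 0.15, with isolations at -0.08, 0.30, 0.09 and 0.26, and 0 genes had an unadjusted p of the difference under 0.05. The fitted difference was above 0 in 53 of these 55 genes, with median responses of -0.17 in Ctrl and -0.03 in KO. Of 25 cholesterol and fatty acid synthesis genes 0 responded either, with 1 at an unadjusted p under 0.05, and their median difference was -0.00.

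The remaining lists are given beside all 2117 responding genes, of which 9.07% were weaker and 1759 were equal. Of 10 responding KLF factors 1 was weaker (*Klf11*) and 9 equal, *Klf11* counting as both, with *Klf10*, an early TGF-β family target, at 0.85 and 0.94. Of 9 responding MAPK phosphatase and Sprouty genes 1 was weaker (*Spry4*, named after its values were seen) and 8 equal, *Spry4* counting as both, and *Dusp6*, a phosphatase of ERK, was undecided (1.21 and 1.01). Of 7 responding angiogenesis genes 1 was weaker: *Ephb4*, a receptor that marks veins, rose by 0.76 and 0.61 (-0.15, -0.29 to -0.01, unadjusted p = 0.0371). All 5 responding CCN and YAP target genes, all 4 responding cell cycle genes and all 3 responding glycolysis genes were equal. Being equal says little for members such as *Mcm3* (0.23 and 0.17) and *Slc2a1* (-0.13 and -0.07), whose responses lie within the limit of 1.5-fold.

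**Figure D5:**
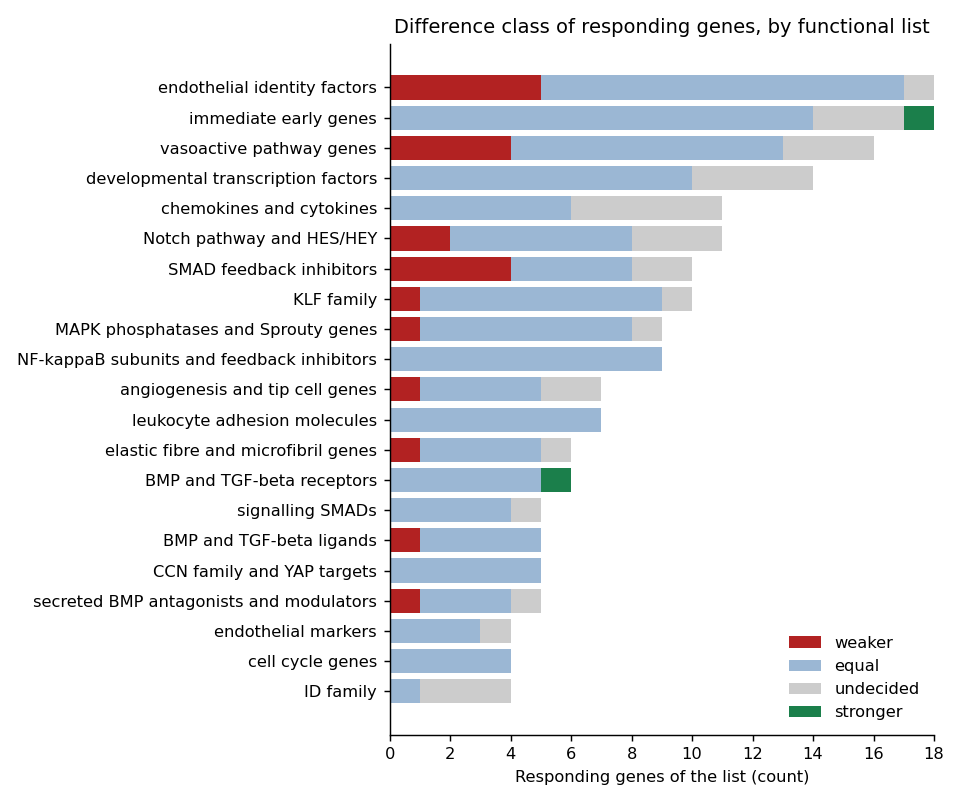
Number of responding genes (x axis) in each functional list with at least 4 of them (y axis), coloured by class, with genes both weaker and equal counted as weaker. Weaker genes number 5 of 18 among endothelial identity factors, 4 of 16 among vasoactive genes and 4 of 10 among SMAD feedback inhibitors, against 192 of all 2117 responding genes.

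Of the 13576 genes that did not respond on average, 943 had a difference against the average response in every isolation and 651 in none. The genes below had the smallest unadjusted p in each direction among those with the same sign in all 4 isolations. *Nup37*, a nuclear pore protein, responded by 0.33 in Ctrl and -0.27 in KO (difference -0.59, -0.89 to -0.29, unadjusted p = 0.000399). *Rnf126*, *Mdga2* and *4930579G18Rik* followed with differences of -0.25, -0.84 and -1.15, and *Mfsd7a*, *Zfp772*, *Gm7658* and *Gm15265* lay above 0 at 1.08, 0.77, 0.98 and 1.01. Apart from *Rnf126* these genes had under 10 CPM in PBS-treated Ctrl cells, and reads of the predicted genes *Gm7658* and *Gm15265* could be shared with related copies. None passed the adjusted threshold.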

How the data were processed

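Poly-A RNA of MLECs was sequenced as stranded libraries, 16 in all. The authors deposited raw read counts per gene, without normalisation. Per the labels and the submitters' processing notes, reads were aligned to GRCm39 with HISAT2 2.0.5, and featureCounts 1.5.0-p3 is named among the tools. The annotation release and the strand setting of the counting are not given in the sources used here. Gene lengths deposited with the counts were not used. Library totals were 14869115 to 17242117 counts. The intervals used the spread left after the isolation was fitted as a block, estimated over all groups together. Differences in level between isolations are therefore not part of them.

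Groups were taken from the labels. Low genes were removed with filterByExpr, which used the groups with a minimum count of 10 and a minimum total of 15. Counts were normalised by TMM and fitted with edgeR 4.0.16 (R 4.3.3, quasi-likelihood, robust) with the isolation as a block. The replicate numbers pair the libraries: after removing group means, the 24 same-numbered pairs correlated across genes at 0.670 to 0.805, and 72 other pairs had a mean of -0.251. The study's methods remove batch effects, which is why the block is in the main fit. P-values were adjusted by Benjamini-Hochberg over 15693 genes. Values of single isolations are log2 CPM with a prior count of 2. Folds of genes at or near 0 in PBS were taken against a floor of 3 counts per library. The procedure was tested on simulated data. No pair of libraries of a group agreed within sampling noise.

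Named genes were the 8 induced and 6 lowered genes with the largest average response in 1 direction in all isolations, the 6 weaker and 6 stronger genes with the smallest p of the difference, the 6 largest equal responses, genes the study names, responding members of 7 pathway lists, up to 3 per other list, and 4 genes per direction that did not respond. Members, limits and lists were chosen with earlier results of these data known. Alternatives used DESeq2 1.42.0, limma 3.58.1 and sva 3.50.0. Values of some list members are not reported here.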

Additional observations from a re-analysis of the deposited data

Results flagged for a closer look

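In 5 of 124 sets of 4 isolation values, 1 isolation lay far from the other 3, by Dixon's criterion on the gap divided by the range, which chance meets in about 1 in 20 sets. The difference of responses of *Lfng*, a glycosyltransferase that modifies Notch, was -1.39 in isolation 2 and -0.03 to 0.01 in the others. *Snai1* stood at 0.10 in isolation 2, with the others between -0.26 and -0.22, so that the sign differed in this isolation alone. *Slc2a1*, a glucose transporter, was at 0.31 in isolation 4 (others -0.04 to -0.01), *Sele* at -0.18 in isolation 3 (others 0.00 to 0.03) and *Smad5* at -0.13 in isolation 3 (others 0.02 to 0.04).

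Among the named genes that did not respond on average, 3 moved one way in all 4 isolations of Ctrl and the other way in all 4 of KO. Only named genes were looked at here. These had been chosen for a small p and for the same sign of the difference in all 4 isolations. *Nup37* had a difference of -0.59, *Gm7658* of 0.98 and *Gm15265* of 1.01, and none of them passed an adjusted p of 0.05 in the test of the difference by edgeR's quasi-likelihood test.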

How the results depend on the processing

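The median difference stayed below 0 for induced genes (-0.27 to -0.19) and above 0 for lowered genes in every setting that gave a value, and moved for lowered genes only with a limit of 2-fold (0.29). Counts depended more on the setting. Without the replicate block there were 372 responding genes, 17 weaker, 1 stronger and 205 equal. With the replicate block fitted within genotype, 1 gene (*Gm45315*) passed in the difference. DESeq2 with the replicate block gave 3 stronger genes. With no filter on low counts 52 genes passed in the difference, including mitochondrial genes and ribosomal pseudogenes, with 348 weaker and 23 stronger. Quantile normalisation, ComBat and DESeq2 gave 14 genes in the difference, 341 weaker and 15 stronger. The 14 were *Bcl9l*, *Bmp4*, *Cdc42ep2*, *Eng*, *Gm45315*, *Grk2*, *Mdfi*, *Nup37*, *Pmepa1*, *Slc30a4*, *Smurf2*, *Sox13*, *Tmem200b* and *Trim62*. limma on the differences of each isolation gave 0 responding, 0 weaker, 0 stronger and 0 equal genes, hence no medians, and with its robust option off, a choice made after seeing the data, 390, 69, 4 and 309. The cause was not tested in any of these.

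Leaving out 1 isolation in turn gave 125 to 218 weaker genes (125 without isolation 1), 4 to 8 stronger (4 without isolation 2, 5 without isolation 3), 1555 to 1923 responding, 1246 to 1525 responding genes equal within 1.5-fold and 0 in the difference, with medians of -0.25 to -0.22 and 0.11 to 0.17. For named genes, 0 differences of a called result reversed. Depth limits low genes: none of the 59 induced genes under 5 CPM could be called equal.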
